A study of Mus musculus with 6 samples.

Results

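Collagen genes were described in MC3T3-E1, a mouse cell line of osteoblast precursors taken from the skull vault, which lays down a collagen matrix and mineralises it in culture. Members were all genes whose symbol has the form Col, a number, a, a number, on probe sets with a single gene symbol, and a gene with several was represented by the one whose mean over the 6 arrays was highest. This gave 44 of the 22180 genes measured, from 47 probe sets. By the usual classification of collagens, fixed by symbol, 11 were fibrillar, 6 belonged to the basement membrane, 3 were network-forming, 9 fibril-associated, 6 of beaded filaments, 2 multiplexins, 4 transmembrane, 1 of anchoring fibrils, and 2 fell in no class. All cells, controls included, were grown in alpha minimum essential medium with 10% fetal bovine serum and, once confluent, given β-glycerophosphate at 10 mM with ascorbic acid at 50 µg/ml to drive differentiation until day 14. In 3 samples the medium held 1 µM NU7441, which inhibits the kinase DNA-PKcs, and in the other 3 the vehicle DMSO. The labels name 1 cell line and do not say whether replicates were separate cultures, so p-values measure only how these samples scatter, and that scatter may be technical. RNA came from whole cell populations, in which fewer cells of a kind and less RNA per cell cannot be told apart.

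Collagens are built from chains of repeated glycine-led triplets that wind into a triple helix. Fibrillar collagens pack side by side into the fibrils that give bone its tensile strength, with type I as the main protein of bone matrix, while fibril-associated collagens sit on the fibril surface and network collagens form sheets. Ascorbic acid is a cofactor of the hydroxylases that stabilise the helix, which is why it is given to osteoblast cultures. By its title the study is about how DNA-PKcs acts on the coregulator alphaNAC while osteoblasts form. The 2 groups compare transcript levels with the inhibitor and with its vehicle. With a single compound and dose, an effect through the kinase cannot be told apart from another effect of the compound.

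Most collagen genes were at nearly the same level with and without NU7441. No collagen gene passed the test, limma with Benjamini-Hochberg adjustment over all 22180 genes at 0.05, where the share called over all genes was 0%. The smallest adjusted p of a collagen gene was 0.698 in limma. The 95% interval of the difference lay within a 2-fold change in both directions for all 44 collagen genes, against 99.2% of all genes. It lay within 0.5 on the log2 scale for 39 of the 44, against 19287 of all 22180 genes. At an unadjusted p under 0.05 there were 8 collagen genes, or 18.2%, against 6.79% of all genes. Of these, 6 had a higher mean with NU7441, where 3.49% of all genes did, and 2 a lower one, where 3.3% did. The 6 were Col8a2, Col4a3, Col6a4, Col7a1, Col10a1 and Col9a2, and the 2 were Col4a6 and Col18a1. The number of collagen genes under 0.05 was 7, 4 and 9 without DMSO 1, 2 and 3, and 5, 4 and 4 without NU7441 1, 2 and 3. The count thus depended on single arrays. It made up 9.09% to 20.5% of the collagen genes, against 5.29% to 7.87% of all genes in the same fits. With same-numbered arrays as a replicate block it was 10, or 22.7%, against 9.37% of all genes.

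**Figure D1:**
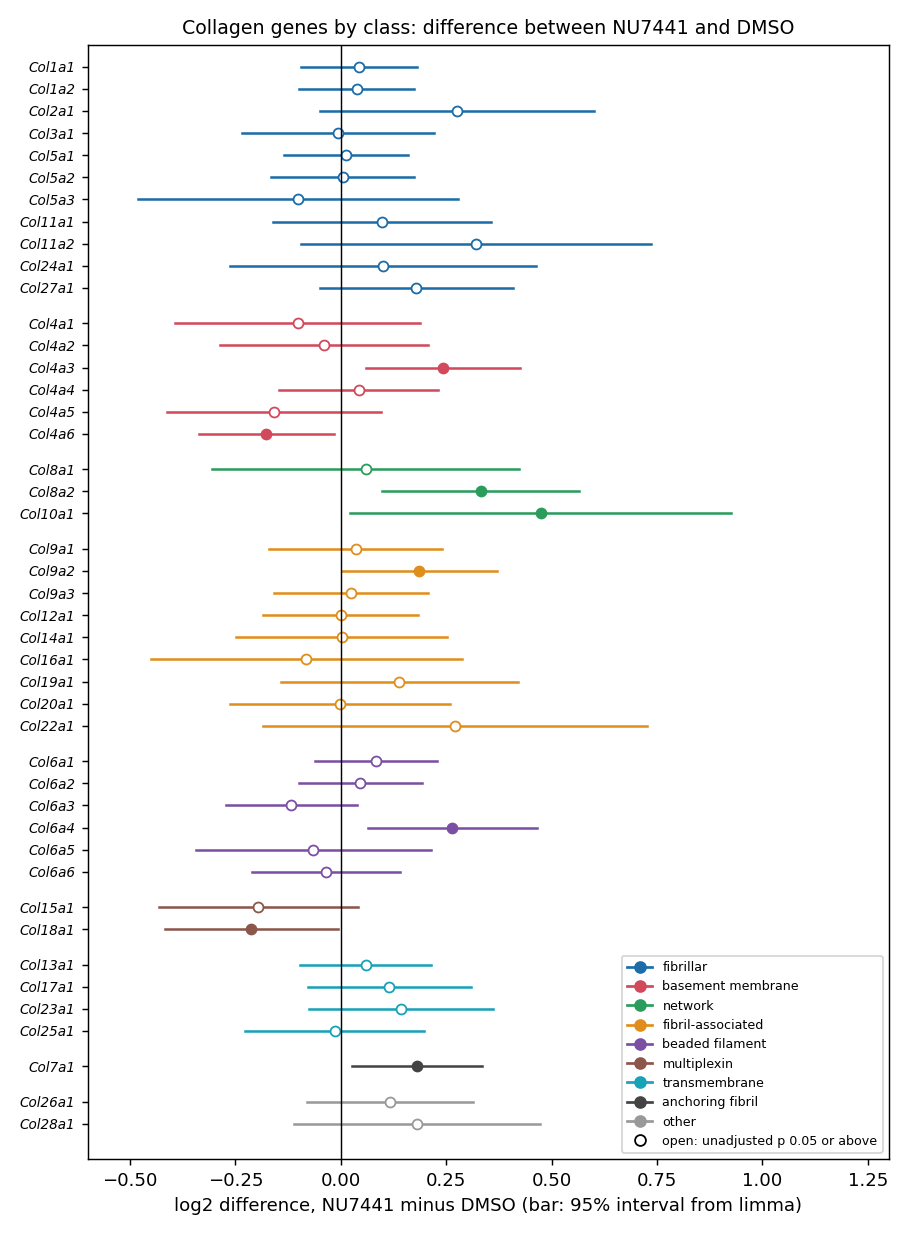
Log2 difference between the NU7441 and DMSO means of each of the 44 collagen genes, by class, with the 95% interval from limma (3 arrays a group). Filled points had an unadjusted p under 0.05, and the network genes Col10a1 at 0.47 and Col8a2 at 0.33 lie farthest to the right, while no gene passed the adjusted test.

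Over the whole family 29 of 44 genes had a higher mean with NU7441, or 65.9%, against 51.3% of all genes, and 15 a lower one, where 48.7% of all genes did. The median log2 difference was 0.04, against 0.00 (0.0036) over all genes. The groups did not overlap, all 3 values of one lying above all 3 of the other, in 11 collagen genes, or 25%, against 12.8% of all genes. In 8 of these NU7441 was higher, where 6.13% of all genes were, and in 3 lower, where 6.64% were. Collagen genes were bright on these arrays: 35 of 44 lay above the median of every array, or 79.5%, against 53.2% of all genes, and 18 lay above the upper quartile of every array. Of those 35, 6 had an unadjusted p under 0.05, or 17.1%, against 6.05% of all genes above the median of every array. A higher mean with NU7441 was found in 21 of the 35, or 60.0%, against 43.3% of all genes at that level. Among the collagen genes not above every median it was found in 8 of 9, or 88.9%, against 60.3% of all such genes. Centring each array on its median turned the split of all genes at an unadjusted p under 0.05 from 775 higher and 731 lower to 549 and 931, and that of the collagen genes from 6 and 2 to 5 and 2. Probe sets differ in how strongly they bind, so levels are not compared between genes.

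**Figure D2:**
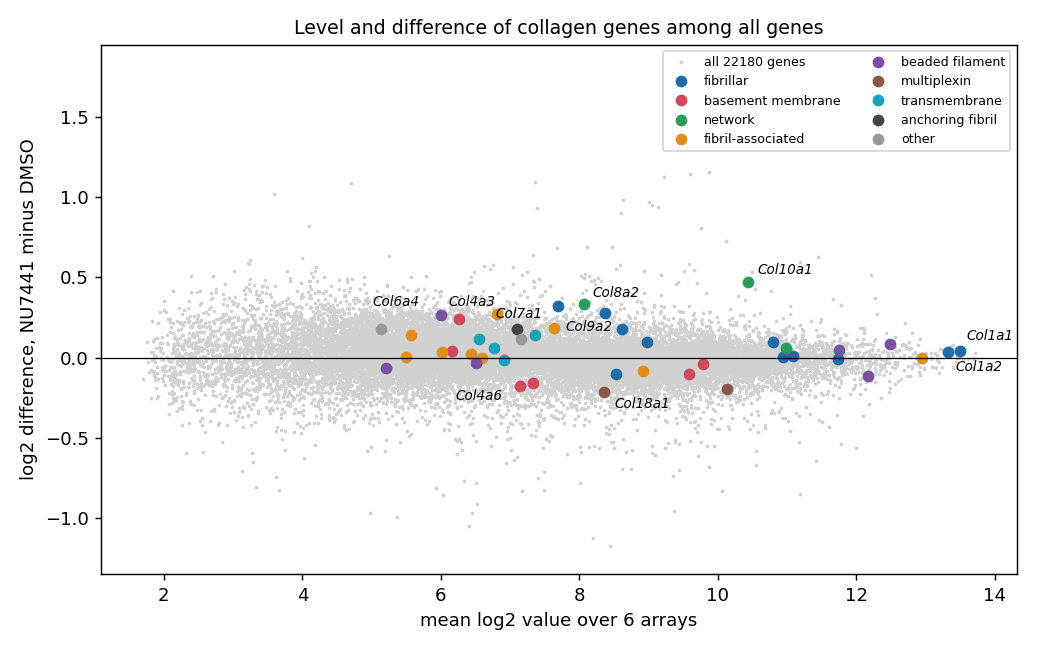
Mean log2 value over the 6 arrays against the log2 difference, NU7441 minus DMSO, for all 22180 genes (grey) and the 44 collagen genes coloured by class. The brightest collagen genes, Col1a1 and Col1a2 among them, lie close to a difference of 0, and the network gene Col10a1, at 0.47, lies highest.

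Among the fibrillar collagens the type I chains differed by 0.04, and the widest differences were those of Col11a2 at 0.32 and Col2a1 at 0.28, neither of which passed. Of the 11 genes 9 had a higher mean with NU7441 and 2 a lower one, with a median difference of 0.04 (0.02 to 0.07 on leaving out 1 array, and 0.09 with probe sets of a gene averaged), and 0 had an unadjusted p under 0.05. Col1a1, the α1 chain of type I collagen, was at 13.46, 13.46 and 13.50 in DMSO 1 to 3 and at 13.53, 13.51 and 13.50 in NU7441 1 to 3, in log2 units. Col1a2, its α2 chain, was at 13.32, 13.30 and 13.31 in DMSO and at 13.33, 13.34 and 13.37 in NU7441. In both genes the groups lay apart, narrowly, and the differences were 0.04 (SE 0.06) and 0.04 (SE 0.06), with adjusted p = 0.908 and 0.919 in limma. The highest value on any array was between 13.94 and 13.96, so both type I genes sat close to the top of the scale, and saturation was not analysed here. Quantile normalization turned the sign of the Col1a2 difference, to -0.0012, and with the mean of its probe sets it was 0.09.

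Col3a1, the type V chains, Col24a1 and Col11a1 had differences between -0.10 and 0.10. Several of them had more spread between arrays than the type I genes. Col3a1, of type III collagen, was at 11.74 ± 0.15 in DMSO and 11.73 ± 0.10 in NU7441 (SD, n = 3 each). Col5a1 and Col5a2, whose type V chains start and limit the growth of type I fibrils, differed by 0.01 (SE 0.06) and 0.00 (0.0044, SE 0.07). Col5a3, the remaining type V chain, differed by -0.10 (SE 0.16), and was at 8.25 in DMSO 3 and 8.26 in NU7441 3 against 8.53 to 8.78 on the other 4 arrays. Col24a1, a fibrillar collagen of forming bone, differed by 0.10 (SE 0.15) and Col11a1, of type XI, by 0.10 (SE 0.11). The interval of the difference reached from -0.14 to 0.16 for Col5a1 and from -0.23 to 0.22 for Col3a1.

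Col2a1, the main collagen of cartilage, was at 8.21, 8.05 and 8.45 in DMSO and 8.29, 8.54 and 8.70 in NU7441. DMSO 3 was above NU7441 1, so the groups overlapped, and the difference was 0.28 (SE 0.14, limma adjusted p = 0.768). Col11a2, which assembles with type II collagen, had the largest difference of the class, 0.32 (SE 0.18), at 7.46, 7.29 and 7.84 in DMSO and 7.60, 7.83 and 8.13 in NU7441. Leaving out 1 array moved it to between 0.18 (without NU7441 3) and 0.47 (without DMSO 3), and without NU7441 3 it was below the 0.24 of Col27a1. In Col2a1 and Col11a2 the array numbered 3 was the highest of its group. Col27a1, a fibrillar collagen of growth cartilage, was at 8.69, 8.47 and 8.41 in DMSO and 8.75, 8.77 and 8.58 in NU7441, overlapping, with a difference of 0.18 (SE 0.10, limma adjusted p = 0.782). With same-numbered arrays as a replicate block the SE was 0.10 for Col2a1 and 0.09 for Col11a2, and neither passed (limma adjusted p = 0.513 and 0.487). NU7441 was the higher member of all 3 same-numbered pairs in Col2a1, Col11a2 and Col27a1, by 0.08, 0.49 and 0.25 in Col2a1.

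The type IV collagens of the basement membrane did not share a direction: 2 of 6 had a higher mean with NU7441 and 4 a lower one, with a median difference of -0.07. Without NU7441 3 that median was 0.04. Col4a1 and Col4a2, the chains of the common α1α1α2 trimer, differed by -0.10 (SE 0.12) and -0.04 (SE 0.10). NU7441 3 held the lowest value of both, 9.27 for Col4a1 against 9.56 to 9.74 on the other 5 arrays, and 9.57 for Col4a2 against 9.70 to 9.91. Col4a3, a chain of the specialised α3α4α5 trimer, was at 6.17, 6.14 and 6.11 in DMSO and 6.25, 6.46 and 6.43 in NU7441. Its groups lay apart, with a difference of 0.24 (SE 0.08), a fold of 1.18 (limma adjusted p = 0.698). Its partner Col4a4 differed by 0.04 (SE 0.08). Both lay below the median of some or all arrays, 6.38 to 6.42, and how far they stood above background is unknown here, which leaves the sizes of these differences uncertain. Col4a6, which forms the α5α6 trimer with Col4a5, was at 7.22, 7.17 and 7.32 in DMSO and 7.04, 7.09 and 7.05 in NU7441. All 3 NU7441 values were below all 3 DMSO values, with a difference of -0.18 (SE 0.07, limma adjusted p = 0.717), while Col4a5 differed by -0.16 (SE 0.11).

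Of the classes of 3 or more genes, network collagens had the largest median difference, 0.33 (0.24 to 0.41 on leaving out 1 array). A higher mean was found in 3 of 3, and the median of 3 genes is the value of the middle one, here Col8a2. Col8a2, a chain of the short-chain type VIII collagen, was at 7.92, 7.73 and 8.06 in DMSO and 8.22, 8.16 and 8.32 in NU7441. The groups lay apart, and the difference of 0.33 (SE 0.10), a fold of 1.26, had the smallest p of the family (limma adjusted p = 0.698). NU7441 was higher by 0.30, 0.43 and 0.26 within the pairs numbered 1, 2 and 3, and by 0.24 to 0.41 when any 1 array was left out. Its partner chain Col8a1 was at 10.98, 10.64 and 11.27 in DMSO and 11.09, 10.91 and 11.07 in NU7441. These values overlapped, with a difference of 0.06 (SE 0.15), which ran from -0.10 to 0.21 on leaving out 1 array. Col10a1, type X collagen, the collagen of hypertrophic cartilage, had the largest difference of the family, 0.47 (SE 0.19), a fold of 1.39 (limma adjusted p = 0.726). Its values were 10.11, 10.03 and 10.47 in DMSO and 10.99, 10.74 and 10.297 in NU7441. The groups overlapped because NU7441 3 was below DMSO 3. Within pairs the difference was 0.88, 0.71 and -0.17, so pair 3 went the other way, and the SE with a replicate block was 0.22. Leaving out 1 array moved the difference to between 0.32 and 0.66.

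**Figure D3:**
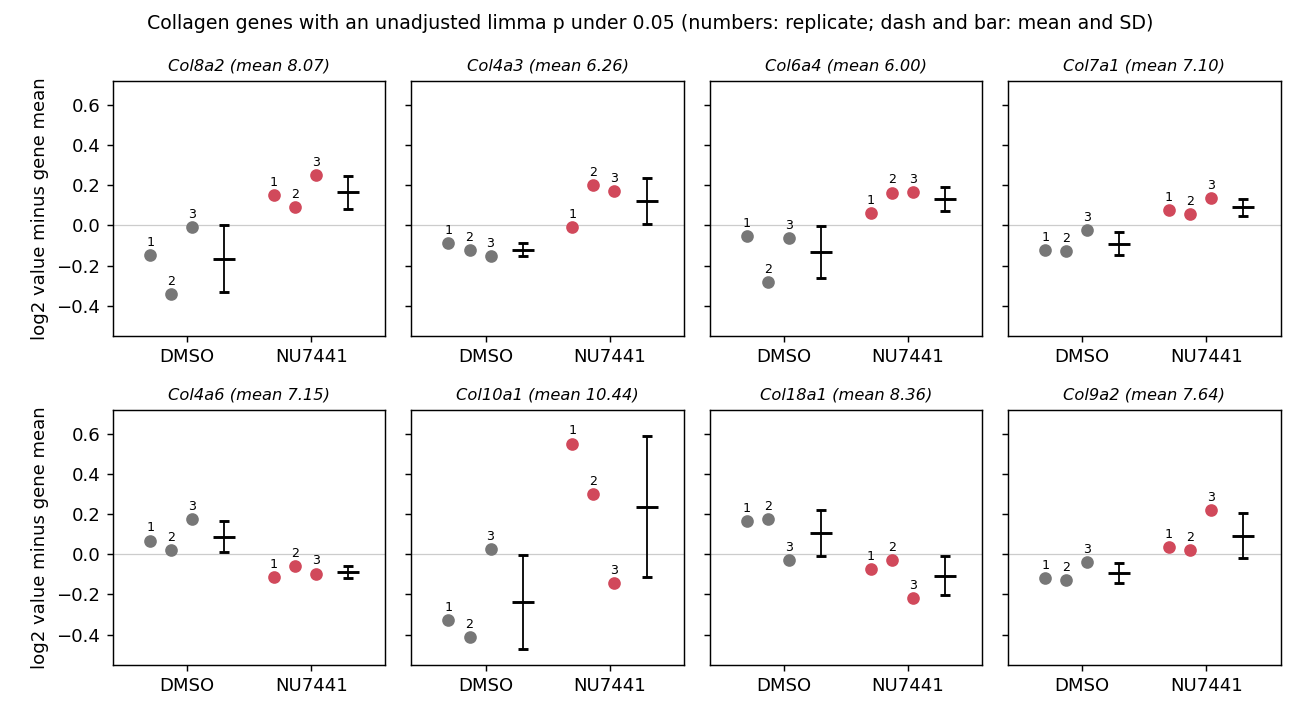
Log2 values minus the gene's mean on each of the 6 arrays for the 8 collagen genes with an unadjusted limma p under 0.05, with the replicate number above each point and the mean and SD of each group beside them. All 3 NU7441 points lie above all 3 DMSO points in Col8a2, Col4a3, Col6a4, Col7a1 and Col9a2 and below them in Col4a6 and, by a very small margin, Col18a1, while in Col10a1 NU7441 3 lies below DMSO 3.

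The stretches before the starts of 4 of these genes are given because Col10a1 and Col8a2 had the largest differences of the network class, Col9a2 was among the genes higher with NU7441 in every pair, and Col18a1 was among those lower in every pair. Each is the 250 bases before the annotated start, from RefSeq (GRCm38.p6), written along the gene's strand. Capitals mark matches to motifs searched on both strands and allowed to overlap. The GC box, bound by Sp1 and its relatives, was searched as GGGCGG. The TATA element, which places the start of transcription in many tissue-specific genes, was searched as TATAAA. The element bound by AP-1, the dimers that hold Jun, was searched as TGANTCA. The element bound by Runx2, the master regulator of osteoblasts, was searched as TGTGGT. Col8a2 lies at chr4:126286544-126286793 on the plus strand, Col10a1 at chr10:34389731-34389980 on the plus strand, Col9a2 at chr4:121039316-121039565 on the plus strand and the outer start of Col18a1 at chr10:77166531-77166780 on the minus strand.
Col8a2: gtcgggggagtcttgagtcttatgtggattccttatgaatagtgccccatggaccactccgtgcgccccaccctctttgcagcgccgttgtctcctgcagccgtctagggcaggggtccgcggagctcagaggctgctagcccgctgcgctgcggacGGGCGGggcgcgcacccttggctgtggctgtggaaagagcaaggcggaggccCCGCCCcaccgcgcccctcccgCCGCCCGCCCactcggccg
Col10a1: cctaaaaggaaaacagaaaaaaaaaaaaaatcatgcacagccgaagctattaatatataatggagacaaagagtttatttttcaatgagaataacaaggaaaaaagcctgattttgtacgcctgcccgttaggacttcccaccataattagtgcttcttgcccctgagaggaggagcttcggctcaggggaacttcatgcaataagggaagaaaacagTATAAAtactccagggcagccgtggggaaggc
Col9a2: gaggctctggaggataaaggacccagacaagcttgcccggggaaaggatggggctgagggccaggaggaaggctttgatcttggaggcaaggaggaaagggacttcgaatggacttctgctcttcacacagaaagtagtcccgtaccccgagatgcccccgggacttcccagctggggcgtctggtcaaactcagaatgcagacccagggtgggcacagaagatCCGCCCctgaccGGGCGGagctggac
Col18a1: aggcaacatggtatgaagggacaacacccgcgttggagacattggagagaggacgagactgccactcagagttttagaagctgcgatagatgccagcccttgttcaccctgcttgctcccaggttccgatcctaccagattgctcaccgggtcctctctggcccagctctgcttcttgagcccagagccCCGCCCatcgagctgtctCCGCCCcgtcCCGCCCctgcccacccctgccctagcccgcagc
These stretches differ between the network genes Col10a1 and Col8a2. The window of the other network gene, Col8a1, which is not printed, is 60.8% G and C. It holds 4 GC boxes, 1 Runx match and no TATA element. The part of such letters in the differences was not tested. The Col10a1 stretch is 41.6% G and C, holds 1 TATA element, which ends 26 bases before the start, and has no GC box. That of Col8a2 is 70% G and C and holds 4 GC boxes and no TATA element, those of Col9a2 and Col18a1 hold 2 and 3 GC boxes, and an AP-1 element is in none of the 4.

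Such stretches were found for 35 of the 44 genes, in 38 windows, since Col18a1, Col6a2 and Col9a1 have more than 1 annotated start. A GC box was in 22 of the 38, or 57.9%, against 32.7% of all 32851 windows of the same length. The median share of G and C was 59.0% in the collagen windows and 52.4% over all windows, and its part in the GC box counts was not tested. A TATA element was in 5, or 13.2%, against 12.4%: those of Col3a1, Col10a1, Col13a1, Col11a2 and Col17a1. The AP-1 letters were in 1, that of Col6a1, or 2.63%, against 6.75% of all windows, and the Runx letters in 3, those of Col18a1, Col8a1 and Col17a1, or 7.89%, against 14%. The Col18a1 match is in the window of its inner start. These are matches of letters in a short window, and binding was not measured. No window was at hand for Col1a1, Col2a1, Col5a2, Col4a3, Col9a3, Col12a1, Col14a1, Col22a1 and Col26a1.

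Fibril-associated collagens were mixed, with 6 of 9 higher, 3 lower and a median difference of 0.02. Without DMSO 2 the median was -0.02. Col9a2, a chain of the type IX collagen that coats cartilage fibrils, was at 7.53, 7.51 and 7.60 in DMSO and 7.68, 7.66 and 7.86 in NU7441. Its groups lay apart, with a difference of 0.19 (SE 0.08), a fold of 1.14 (limma adjusted p = 0.733). The other type IX chains, Col9a1 and Col9a3, differed by 0.04 (SE 0.09) and 0.02 (SE 0.08), and their groups overlapped. Neither of these chains lay above the median of every array, as Col9a2 did, and how far they stood above background is unknown here. Col22a1, a collagen of tissue junctions, was at 6.46, 6.46 and 7.11 in DMSO and 6.82, 6.83 and 7.18 in NU7441. DMSO 3 overlapped the NU7441 values, and the difference was 0.27 (SE 0.19, limma adjusted p = 0.830), with an SE of 0.08 in the fit with a replicate block. Col12a1, which binds type I fibrils, was at 12.95 ± 0.11 in DMSO and 12.95 ± 0.06 in NU7441 (SD, n = 3 each). Col16a1 ran from 8.66 to 9.19 and was lowest on the array numbered 3 in both groups, with a difference of -0.08 (SE 0.16). The other 3 genes differed by 0.00 (0.0020) for Col14a1, 0.14 for Col19a1 and -0.00 (-0.0022) for Col20a1.

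Beaded-filament collagens, the type VI chains that form microfibrils around cells, held some of the smallest spreads between arrays. Of 6 genes 3 were higher and 3 lower, with a median difference of 0.01 (0.0061), which was 0.03 without DMSO 3, -0.0012 without DMSO 1 and -0.02 with each array centred. Col6a1, the α1 chain, was at 12.49, 12.43 and 12.42 in DMSO and 12.52, 12.57 and 12.50 in NU7441, apart by a narrow margin, with a difference of 0.08 (SE 0.06). Col6a3, the long α3 chain, was at 12.26, 12.15 and 12.28 in DMSO and 12.09, 12.13 and 12.11 in NU7441. It thus lay apart in the other direction, with a difference of -0.12 (SE 0.07, limma adjusted p = 0.791). Col6a2, which shares their trimer, differed by 0.05 (SE 0.06). Of the other chains, Col6a4 was at 5.95, 5.71 and 5.94 in DMSO and 6.06, 6.16 and 6.17 in NU7441. Its difference of 0.26 (SE 0.08, limma adjusted p = 0.698) separated the groups, but it lay below the median of every array, with the same uncertainty about its size. Col6a5 and Col6a6 differed by -0.07 (SE 0.12) and -0.03 (SE 0.07).

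Both multiplexins, collagens of the basement membrane zone whose ends are cut to release endostatin-like fragments, had lower means with NU7441. Col18a1, the source of endostatin, was at 8.52, 8.53 and 8.33 in DMSO and 8.28, 8.33 and 8.14 in NU7441. The groups met almost at DMSO 3 and NU7441 2, and the difference was -0.21 (SE 0.09, limma adjusted p = 0.732), with -0.24, -0.21 and -0.19 within the 3 pairs. Col15a1 differed by -0.20 (SE 0.10), at 10.16, 10.23 and 10.29 in DMSO and 10.11, 10.16 and 9.83 in NU7441, and most of it came from NU7441 3. Col7a1, the anchoring fibril collagen that ties epithelium to stroma, was at 6.98, 6.98 and 7.08 in DMSO and 7.18, 7.16 and 7.24 in NU7441. These values did not overlap, and the difference of 0.18 (SE 0.07, limma adjusted p = 0.710) was nearly the same in the 3 pairs, at 0.20, 0.18 and 0.16.

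Transmembrane collagens had 3 of 4 genes higher, with a median of 0.09 (0.04 to 0.11 on leaving out 1 array) and 0 at an unadjusted p under 0.05. Col23a1 was at 7.35, 7.19 and 7.34 in DMSO and 7.45, 7.57 and 7.29 in NU7441, and differed by 0.14 (SE 0.09, limma adjusted p = 0.819). Col17a1, of the hemidesmosomes of skin, was at 6.54, 6.45 and 6.51 in DMSO and 6.47, 6.64 and 6.73 in NU7441, and differed by 0.12 (SE 0.08, limma adjusted p = 0.830). The groups overlapped in both genes. Col13a1 differed by 0.06 and Col25a1 by -0.01, and of the genes in no class Col26a1 differed by 0.12 and Col28a1 by 0.18, overlapping in each.

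The arrays of one number could be high or low together in both groups. The array numbered 3 was the highest of its group in both groups for 8 collagen genes, or 18.2%, against 15.6% of all genes, among them Col2a1, Col11a2, Col8a2, Col9a2, Col22a1 and Col7a1. It was the lowest in both groups for 9, or 20.5%, against 15% of all genes, among them Col3a1, Col11a1, Col5a3, Col12a1, Col16a1, Col4a1 and Col18a1. The array numbered 1 was the highest in both groups for 8, or 18.2%, against 11.5% of all genes, and the lowest in both for 2, or 4.55%, against 14.9%. The array numbered 2 was the highest in both for 2, or 4.55%, against 14.1%, and the lowest in both for 5, or 11.4%, against 12.4%. These counts were chosen after the values were seen and were not tested. Same-numbered pairs all went one way in 18 collagen genes, or 40.9%, against 32.7% of all genes, with 13 higher, where 16% of all genes were, and 5 lower, where 16.6% were. Median within-group SD was 0.12 over collagen genes (0.116) and 0.11 over all genes (0.114), and among classes of 3 or more it ran from 0.07 for beaded filaments to 0.23 for network collagens (0.235).

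**Figure D4:**
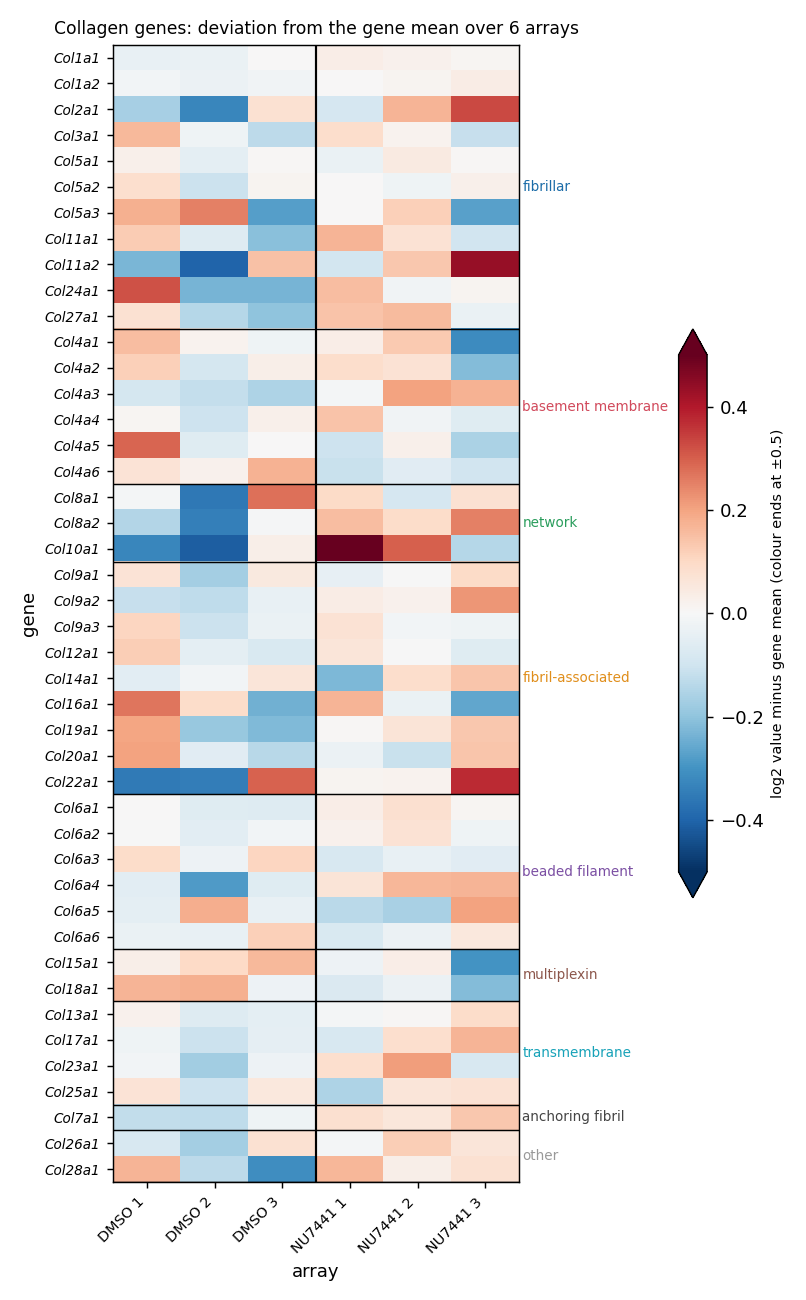
Log2 value minus the gene's mean over the 6 arrays, for the 44 collagen genes in rows by class and the 6 arrays in columns, on a colour scale that ends at ±0.5. Col2a1, Col11a2 and Col22a1 are highest on arrays DMSO 3 and NU7441 3 within their groups, Col5a3 and Col16a1 are lowest there, and the rows of Col1a1, Col1a2, Col5a1 and Col6a1 are pale.

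All 8 osteoblast markers measured had a higher mean with NU7441, with a median difference of 0.59. In limma 0 passed, and 1, Alpl at 0.54 (SE 0.21), had an unadjusted p under 0.05, or 12.5%, against 6.79% of all genes. Their groups overlapped in all 8. NU7441 was higher in all 3 same-numbered pairs in all 8, where 16% of all genes were, by 0.75, 0.87 and 0.80 for Pth1r, the parathyroid hormone receptor. With the replicate block 8 of 8 had an unadjusted p under 0.05, against 9.37% of all genes, and 0 passed (smallest limma adjusted p = 0.229). Their summed signal, in log2, was 12.59, 12.82 and 13.66 in DMSO 1 to 3 and 13.19, 13.42 and 14.17 in NU7441 1 to 3, highest on the array numbered 3 in both groups, as were Col2a1, Col11a2 and Col22a1. Of the 8 markers of the labelled cell type, 7 lay above the median of every array. Cartilage markers, set beside the cartilage collagens, had 5 of 8 higher, where 51.3% of all genes were, and 3 at an unadjusted p under 0.05, all higher, where 3.49% of all genes were. These were Snorc at 0.26, Ucma at 0.37 and Matn1 at 0.23, none of which lay above the median of every array. The cartilage markers had a summed signal of 11.02 to 11.08 in DMSO and 11.06 to 11.14 in NU7441. Such a sum is weighted to the brightest members of its list, here Sox9, at 10.45 in DMSO and 10.43 in NU7441. Sox9 and Hapln1 lay above the median of every array, while Acan, the cartilage proteoglycan, was at 5.75 in DMSO and 5.71 in NU7441, below every median. The part of either list in the collagen differences was not tested.

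By annotation order 8 pairs of collagen genes are direct neighbours among protein-coding genes, and 6 of the 8 had differences of the same sign. Col4a1 and Col4a2, which lie head to head, differed by -0.10 and -0.04, and Col4a5 and Col4a6 by -0.16 and -0.18. Col4a3 and Col4a4, also head to head, differed by 0.24 and 0.04, and Col6a1 and Col6a2 by 0.08 and 0.05. Col9a1 and Col19a1 differed by 0.04 and 0.14. Col3a1 and Col5a2 were both within 0.01 of 0, on opposite sides. Of the type VI cluster Col6a4 differed by 0.26, while its neighbour Col6a5 differed by -0.07 and Col6a6 by -0.03.

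The genes had other probe sets in 3 cases, dimmer in each. The second probe set of Col1a2, at a mean of 9.99, differed by 0.14 (SE 0.10), that of Col6a1, at 9.01, by 0.20 (SE 0.09) and that of Col5a1, at 6.74, by 0.10 (SE 0.08). All 3 had the sign of the probe set used and a larger difference. In Col6a1 the second probe set was at 8.83, 9.08 and 8.81 in DMSO and 9.10, 9.19 and 9.05 in NU7441, where NU7441 3 was below DMSO 2.

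Genes that make, trim and bind collagen were divided in direction, and 0 passed in limma in any of these lists. Among 21 measured genes of procollagen folding and export 10 were higher and 11 lower, with a median of -0.00 (-1.8e-04). The prolyl hydroxylase gene P4ha2 differed by -0.39 (SE 0.09), the lysyl hydroxylase gene Plod1 by -0.39 (SE 0.10) and P3h2 by -0.32 (SE 0.10), while the prolyl isomerase gene Fkbp14 differed by 0.18 (SE 0.06). These were the 4 of the list at an unadjusted p under 0.05, or 19.0%, against 6.79% of all genes. Procollagen cleavage genes had 5 of 9 higher and a median of 0.04, with Mep1b at 0.17 (SE 0.08), Adamts14 at -0.21 (SE 0.10), Tll2 at -0.19 (SE 0.09) and 0 at an unadjusted p under 0.05. The widest difference of these was that of Pcolce2, a procollagen proteinase enhancer, at 0.50 (SE 0.42). The crosslinking enzymes had 1 of 4 higher and a median of -0.11, with Lox, which joins collagen chains, at -0.22 (SE 0.09). Basement membrane partners had 4 of 15 higher and a median of -0.06, with the proteoglycan Agrn at 0.18 (SE 0.07), the laminin chain Lamb2 at 0.14 (SE 0.06) and Lamb1, another laminin chain and the widest difference of the list, at -0.38 (SE 0.22). Fibril surface regulators had 4 of 9 higher and a median of -0.05, and the widest difference was that of Lum, a proteoglycan that governs fibril width. Lum was at 11.98, 11.43 and 11.44 in DMSO and 10.95, 10.96 and 10.40 in NU7441, groups that did not overlap, with a difference of -0.85 (SE 0.20, limma adjusted p = 0.643). Dcn, a related proteoglycan, differed by -0.29 (SE 0.09). The collagen breakdown list had 3 of 11 higher and a median of -0.02, with the inhibitor Timp3 at -0.53 (SE 0.14). It holds inhibitors beside the genes that break collagen down, so its count and median give no direction for breakdown. Collagen receptors had 7 of 10 higher and a median of 0.08, with the integrin Itga1 at 0.31 (SE 0.11).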

How the data were processed

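The data were 6 Affymetrix arrays of total RNA, 3 DMSO and 3 NU7441, grouped and numbered from the labels. The deposited table gives 1 log2 value per probe set and array. The log2 scale was read from the range of the values. For background correction, summarisation and normalization, the method is not given in the sources used here. The label was biotin, per the labels. Of 41345 probe sets 23521 had 1 gene symbol, 1814 several and 16010 none here. The Entrez number of 23328 of the first was in the RefSeq gene table, and 0 symbols changed. Over all probe sets, array medians lay between 6.38 and 6.42 and correlations between arrays between 0.989 and 0.993. Precision is limited by how few arrays there are. No further normalization or filter was applied.

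The test was that of limma 3.58.1 (R 4.3.3) from lmFit and eBayes with group as the only term, two-sided and adjusted by Benjamini-Hochberg over 22180 genes. The script was tested on simulated data. The SE is limma's moderated one. Lists are described by counts and medians. The members, classes, lists and settings were chosen with earlier results of these data known. Values on every array are given for Col1a1, Col1a2, collagens with an unadjusted p under 0.05 and the 2 with the smallest p of each class of 3 or more; such values of Col8a1, Col11a2, Col6a1, Col15a1 and Lum, and the naming of Acan, Sox9, Hapln1, Fkbp14 and Pcolce2, were added after their values were seen. Figures were drawn with matplotlib 3.10.9.

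Both groups carry the numbers 1 to 3. Deviations from the group means correlated, over genes, at 0.149, 0.169 and 0.339 for arrays of the same number and at -0.246 to 0.0938 for different numbers. Every same-numbered pair being over 0.1, same-numbered arrays were treated as pairs in the blocked fit. This pairing is read from the values alone, the same ones that the blocked fit tests, since the labels give no meaning for the numbers. Deviations from a group mean cancel within the group, so the correlations of same and of different numbers depend on each other.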

Additional observations from a re-analysis of the deposited data

How the results depend on the processing

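Under none of the 15 alternatives was any collagen gene called by limma. Over all genes 100 were called under the replicate block combined with an intensity trend and robust prior, none of them a collagen, and 0 under every other. Under that fit 15 collagen genes, or 34.1%, had an unadjusted p under 0.05, against 8 in the main fit. Of all genes 11.2% did, against 6.79% in the main fit. The smallest limma adjusted p of a collagen gene under it was 0.126. The replicate block alone called 0 genes (smallest adjusted p 0.229) and changed no call. Leaving out 1 array gave 4 to 9 collagen genes at an unadjusted p under 0.05, or 9.09% to 20.5%, against 5.29% to 7.87% of all genes. It moved the median difference of basement membrane collagens to between -0.14 and 0.045 and that of beaded-filament collagens to between -0.0012 and 0.034. The beaded-filament median was 0.047 in the upper 75 and the upper 50 percent of genes by level, filters that dropped dim members. Col1a2 reversed, to -0.0012, under quantile normalization, and the cause was not tested. Col8a2 stayed below an unadjusted p of 0.05 under all 15. Averaging probe sets moved the Col5a1 difference to 0.06, that of Col6a1 to 0.14 and that of Col1a2, with the fibrillar median, to 0.09. Precision is limited by 3 arrays a group, and for dim genes by an unknown background.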

Other observations

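Markers of other cell types were measured in 6 lists, and how far they stood above background is unknown here. Endothelial markers had 2 of 6 higher with NU7441 and a median difference of -0.03, with Tek at -0.19 (SE 0.11) and a summed log2 signal of 8.24 to 8.35 in DMSO and 8.18 to 8.37 in NU7441. Macrophage markers had 2 of 6 higher and a median of -0.05, with Cd68 at -0.23 (SE 0.19) and a summed signal of 8.90 to 9.12 in DMSO and 8.84 to 8.98 in NU7441. Smooth muscle markers had 3 of 6 higher and a median of -0.01, with Acta2, actin of contractile cells, at 12.96 in DMSO and 12.90 in NU7441, and a summed signal of 13.27 to 13.34 and 13.24 to 13.29. Skeletal muscle markers had 5 of 6 higher, a median of 0.07 and a summed signal of 9.20 to 9.35 in DMSO and 9.28 to 9.37 in NU7441, and epithelial markers had 4 of 5 higher, a median of 0.05 and 8.80 to 8.92 and 8.83 to 8.95. Adipocyte markers had 3 of 5 higher, a median of 0.08 and a summed signal of 8.13 to 8.20 in DMSO and 7.92 to 8.17 in NU7441, while Fabp4, a fatty acid carrier, was at 5.87 ± 0.32 in DMSO and 4.87 ± 0.26 in NU7441 (SD, n = 3 each), a difference of -0.99 (SE 0.19, limma adjusted p = 0.598). In none of these 6 lists did a gene pass in limma. Of their 34 measured genes 1, Fabp4, had an unadjusted p under 0.05, against 6.79% of all genes. The part of these markers in the collagen differences was not tested.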
